A study of Caenorhabditis elegans with 2 samples.

Results

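Aminoacyl tRNA synthetases were followed here as a family of 32 genes among the 19973 nuclear protein-coding genes of Caenorhabditis elegans. Members were taken by symbol alone: 1 letter for the amino acid, then ars-, then a number. The 32 symbols cover all 20 letters, with 20 symbols numbered 1, 11 numbered 2, and fars-3. The measurement was ChIP-seq of UNC-120, an SRF-like transcription factor known for its role in muscle. Both libraries came from strain OP659, which has the allele unc-119(tm4063) III and the transgene wgIs659, and which makes UNC-120 with GFP and FLAG at its C terminus. Chromatin of whole embryos of mixed stage and pooled sexes, taken 3 h after bleach synchronization, was sonicated and precipitated with anti-GFP. The 2 libraries are biological replicates 1 and 2 of 1 group per the labels, and no second condition or untagged strain was analysed here. Tagged protein from a transgene stands in for UNC-120 in these samples, and whole embryos do not tell in which cells a region was occupied.

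As a rule, an aminoacyl tRNA synthetase joins 1 amino acid to its matching tRNAs, the step that sets which amino acid a codon calls for. Cells need this reaction in the cytosol and again in mitochondria, so for many amino acids a nuclear genome holds one gene for each compartment, while other genes serve both. Phenylalanyl tRNA synthetase of the cytosol is built from alpha and beta subunits, and fars-3 is named in RefSeq as the beta subunit.

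UNC-120 summits of the authors' list of reproducible peaks lay near 7 synthetase genes: ears-2, fars-3, fars-1, rars-1, mars-1, tars-1 and iars-1. A gene was called bound when a summit, the position of highest signal in a peak, lay from 1000 bp upstream to 500 bp downstream of an annotated 5' end. The list holds 2946 nuclear peaks that passed the authors' threshold on the irreproducible discovery rate (IDR), a measure of how well peak ranks hold between replicates. The 7 of 32 synthetase genes are 21.9%, beside 9.26% of all protein-coding genes under the same rule (1849 of 19973). When each summit was given to the nearest 5' end alone, within 2000 bp, 3 of 32 synthetase genes (9.38%) were bound, beside 9.62% of all genes, since 4 of the 7 summits were nearer to another gene. With 1 group of embryos this is a description, with no test. The 7 are the genes for 6 of the 20 amino acids: glutamate, phenylalanine with both fars-1 and fars-3, arginine, methionine, threonine and isoleucine. The score is the authors' value of peak strength, on a scale not given in the sources used here, and a rank counts regions from the strongest down. The 7 scores ran from 185 to 989, with a median of 335, beside a median of 301 over all bound genes. The median distance from summit to 5' end was 380 bp in the 7 genes and 270 bp over all bound genes.

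**Figure D1:**
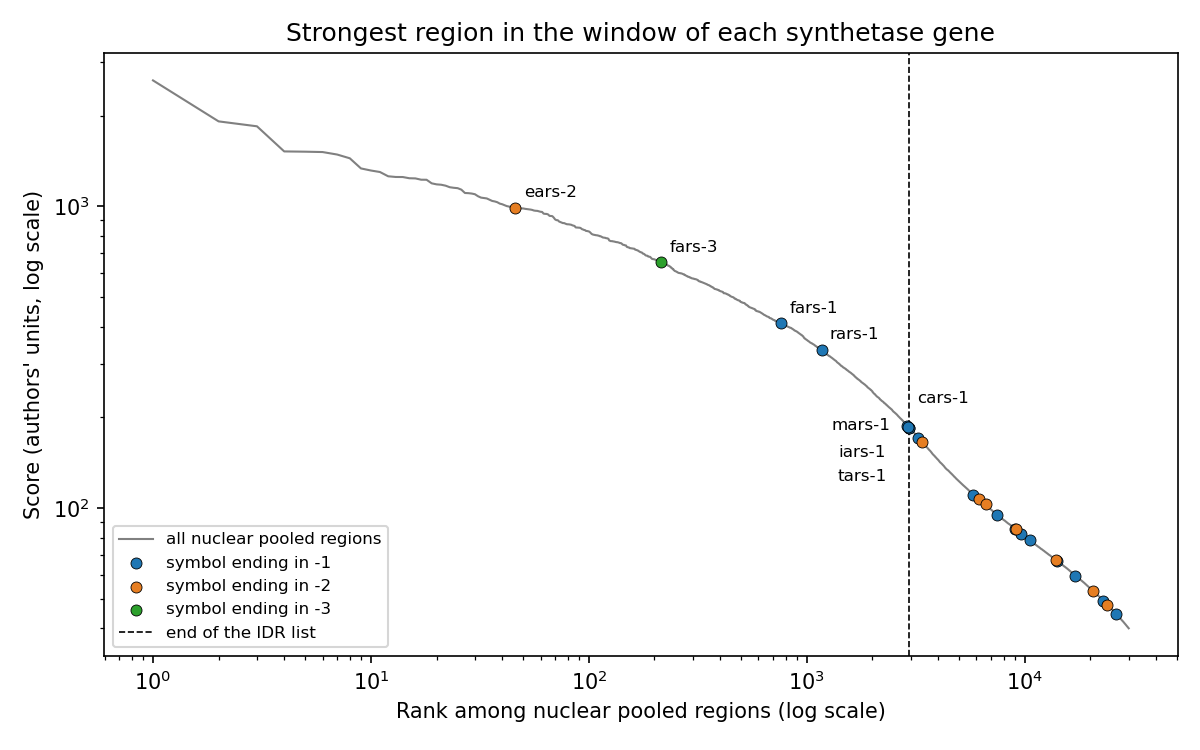
Score of the strongest region in the window of each synthetase gene (authors' units) against its rank among the 29995 nuclear regions of the pooled list, both axes on a log scale; the grey line is all regions and the dashed line the end of the IDR list at rank 2946. The gene ears-2 stands at rank 46 and fars-3 at rank 215, while mars-1, tars-1, iars-1 and the unbound cars-1 crowd around the dashed line.

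The strongest peak of the family was at ears-2, named in RefSeq as a mitochondrial nondiscriminating glutamyl tRNA synthetase (WBGene00001338, chrIV:388686-390468 in ce11, minus strand). Its summit was 26 bp upstream of the single 5' end. The score was 989 in the pooled libraries, 479 in replicate 1 and 511 in replicate 2. It ranked 46 in the IDR list, 56 in replicate 1 and 47 in replicate 2, so both replicates placed it among their strongest regions. The peak spans chrIV:390329-390675, a stretch of 347 bp with its summit in an intergenic gap of 92 bp. On the other side of that gap, uncp-18 starts on the plus strand 66 bp from the summit, so the peak is given to both genes. The next peak was at fars-3 (WBGene00001498, chrII:8464848-8467072, plus strand), with a summit 128 bp upstream and a score of 653. Its ranks were 215 in the IDR list, 225 in replicate 1 and 216 in replicate 2, with scores of 321 and 336 in the replicates. It is the only one of the 7 summits given to no other gene. The gene upstream, zyg-9, which encodes a microtubule-associated protein, ends 336 bp before fars-3 on the same strand. The sequences around these summits are shown because these are the strongest peaks that lie next to a synthetase 5' end. They were read from the plus strand of the ce11 genome, chrIV:390469-390554 for ears-2, where the stretch stops at the ears-2 exon, and chrII:8464660-8464780 for fars-3. Capitals mark the 11 bases centred on the summit.
ears-2: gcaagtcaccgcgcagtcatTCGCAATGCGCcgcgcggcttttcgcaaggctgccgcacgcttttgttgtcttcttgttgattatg
fars-3: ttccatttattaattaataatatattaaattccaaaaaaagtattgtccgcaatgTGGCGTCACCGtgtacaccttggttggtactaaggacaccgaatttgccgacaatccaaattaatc

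The base composition of these stretches differs, with 55.8% G and C in the ears-2 stretch and 34.7% in the fars-3 stretch. In windows of 201 bp centred on the summit the values were 45.3% and 31.3%, beside a median of 45.8% over all 2946 summits. Only 1.15% of all summits had a lower GC content than the one at fars-3.

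Peaks at rars-1, tars-1 and iars-1 lay nearer to the 5' end of another gene than to that of the synthetase. The cytoplasmic arginine enzyme gene rars-1 (WBGene00004679, chrIII:4914088-4917177, minus strand) had a summit 998 bp upstream, at the edge of the window, with a score of 335. The same summit is 167 bp upstream of rpb-8, which encodes an RNA polymerase II subunit and lies in front of rars-1 on the same strand with a gap of 66 bp. The rars-1 region ranked 1168 in the IDR list, 1669 in replicate 1 (score 133) and 1037 in replicate 2 (score 190). It kept its place among the top 2946 regions of each replicate. The cytoplasmic threonine enzyme gene tars-1 (WBGene00006617, chrII:11691325-11695657, minus strand) has 3 annotated 5' ends. Its summit, score 186 and rank 2926, was 380 bp upstream of the nearest of them but 984 bp downstream of the outermost. The position is in an intron of tars-1 and of kel-1, the gene on the opposite strand, whose nearest 5' end is 155 bp away. The replicates gave the tars-1 region ranks of 2581 (score 101) and 4040 (score 83.2). The cytoplasmic isoleucine enzyme gene iars-1 (WBGene00002152, chrIV:10368601-10373136, plus strand) shares an upstream gap of 811 bp with pges-2, which is transcribed away from it. Its summit was 485 bp upstream of iars-1 and 326 bp upstream of pges-2, with a score of 185 and a rank of 2943, near the end of the list. Ranks of the iars-1 region were 2622 in replicate 1 (score 99.6) and 3018 in replicate 2 (score 102).

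The cytoplasmic methionine enzyme gene mars-1 (WBGene00003415, chrIV:11631941-11635487, minus strand) had a summit 219 bp upstream, nearer to it than to any other gene. It is also 942 bp upstream of F58B3.6, a divergent gene. The pooled score was 188 at rank 2878. The replicates differed most here: replicate 1 gave a score of 66.1 at rank 4636, and replicate 2 a score of 121 at rank 2317. Sequences of 121 bp around these 4 summits are given so that they can be set beside those of ears-2 and fars-3; capitals again mark the 11 bases at the summit. They come from the plus strand of ce11 at chrIII:4918115-4918235 for rars-1, chrII:11694613-11694733 for tars-1, chrIV:10368056-10368176 for iars-1 and chrIV:11635646-11635766 for mars-1.
rars-1: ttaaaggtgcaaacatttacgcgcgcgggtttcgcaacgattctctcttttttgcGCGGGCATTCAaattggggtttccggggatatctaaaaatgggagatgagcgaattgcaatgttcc
tars-1: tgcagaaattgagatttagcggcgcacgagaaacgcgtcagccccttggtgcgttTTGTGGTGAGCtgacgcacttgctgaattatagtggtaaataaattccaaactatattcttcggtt
iars-1: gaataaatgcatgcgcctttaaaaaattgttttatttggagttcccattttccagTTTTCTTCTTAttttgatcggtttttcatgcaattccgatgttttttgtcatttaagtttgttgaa
mars-1: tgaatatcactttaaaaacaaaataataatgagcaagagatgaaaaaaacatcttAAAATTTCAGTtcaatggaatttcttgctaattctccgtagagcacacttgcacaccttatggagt

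In 201 bp windows the GC content at these summits was 40.3% at rars-1, 39.8% at tars-1, 32.3% at iars-1 and 30.3% at mars-1. All 7 member summits were therefore below the median of 45.8% over all summits, ears-2 by the least. At iars-1 and mars-1, 1.66% and 0.747% of all summits had a lower GC content. Short sequences known as sites of transcription factors in worms or other animals were then searched on both strands within 100 bp of each summit. They were the E boxes CAGCTG and CACCTG, the class of site read by MyoD proteins, the repeat GAGAGAGA, the GATA factor site TGATAA, and the CArG box, the class of site read by SRF proteins. None of the 5 was found at any of the 7 member summits. Over all 2946 summits, CAGCTG was present at 9.4%, CACCTG at 6.59%, GAGAGAGA at 16.3%, TGATAA at 10.6% and the CArG box at 1.46%. This says only that these letters are not in these windows. Within 50 bp the member windows again held none, beside 5.47%, 3.12%, 9.88%, 3.94% and 0.781% of all summits in the same order.

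The 7 summits were not next to tRNA genes. The nearest annotated tRNA, snoRNA or other small RNA gene was between 2768 bp and 91701 bp away, and for 2 of the 7 summits it was a tRNA gene, 56814 bp from iars-1 and 85443 bp from mars-1.

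The remaining bound gene, fars-1, is named in RefSeq as a phenylalanine tRNA ligase (WBGene00001497, chrI:6211981-6214685, minus strand, 4 annotated 5' ends). Its summit was 907 bp upstream of fars-1 and 135 bp upstream of rbm-5, an RNA-binding protein gene, inside an untranslated exon of T08B2.15. The score was 410 at rank 764, with 197 at rank 794 in replicate 1 and 208 at rank 847 in replicate 2. Thus both fars-1 and fars-3 had a summit in the window, at 907 bp and 128 bp, while fars-2 had none in the IDR list or in the pooled list. The nearest pooled summit to fars-2 was 1426 bp upstream with a score of 68.6. In all, 6 of the 7 bound synthetase genes shared their summit with another gene, and for 4 of them (fars-1, iars-1, rars-1 and tars-1) that gene was nearer. The 3 genes bound by the nearest 5' end were ears-2, fars-3 and mars-1.

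**Figure D2:**
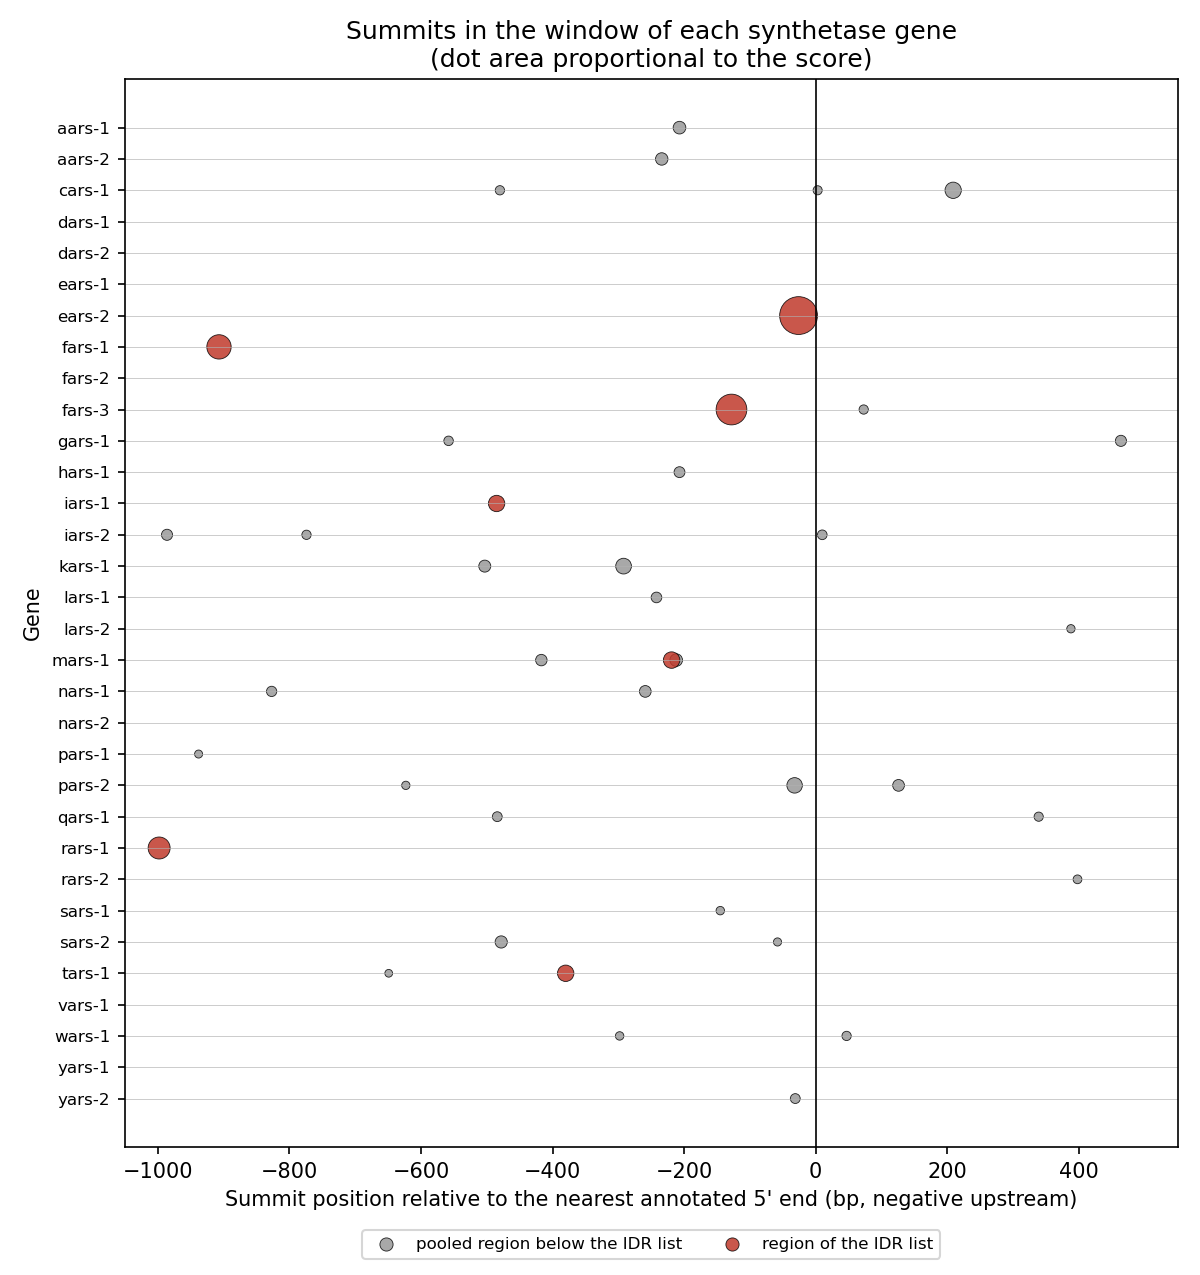
Position of every pooled summit in the window of each of the 32 synthetase genes, in bp from the nearest annotated 5' end of that gene (negative values upstream); red dots belong to the IDR list, grey dots to weaker pooled regions, and dot area follows the score. The ears-2 and fars-3 summits lie 26 bp and 128 bp upstream, those of fars-1 and rars-1 at 907 bp and 998 bp, and 7 genes have no dot.

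The replicates placed the strongest members alike and divided on the weakest. Of the 7 bound genes, 6 had their region among the top 2946 of replicate 1, 5 among the top 2946 of replicate 2, and 4 in both: ears-2, fars-1, fars-3 and rars-1. The other members, mars-1, tars-1 and iars-1, had pooled scores of 185 to 188, at the end of the list, whose lowest nuclear score was 185. Just outside it was cars-1, for cysteine, with a score of 184 at rank 2949, 209 bp downstream of a 5' end. Its region ranked 2691 in replicate 1 (score 97.8) and 2692 in replicate 2 (score 110), within the top 2946 of each. The bound iars-1 and the unbound cars-1 were thus 6 ranks apart. How many of all 2946 peaks keep a place in the top 2946 of each replicate was not counted.

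**Figure D3:**
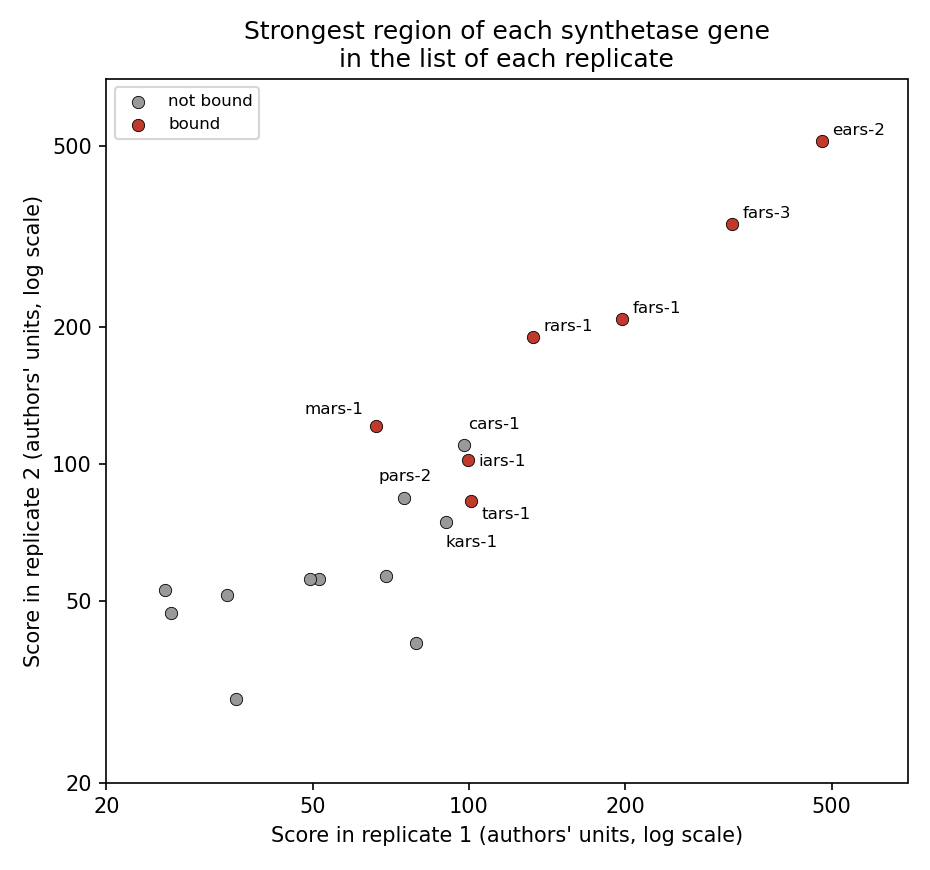
Score of the strongest region of each synthetase gene in the list of replicate 1 and of replicate 2 (authors' units, log scales), for the 18 genes whose region was matched within 200 bp in both; red dots are bound genes. The order of ears-2, fars-3, fars-1 and rars-1 is the same in both replicates, and cars-1 lies among the weakest bound genes.

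Among genes without a bound call, weaker regions were common. The pooled list, which the authors ranked before applying their IDR threshold, holds 29995 nuclear regions, and its top 2946 are the IDR list. Its deposited name says peaks and background, so a region of low rank need not be a site of UNC-120. A pooled summit was in the window of 25 of 32 synthetase genes (78.1%), beside 40.3% of all protein-coding genes. For 7 genes the best region was in the IDR list. For another 4 it ranked 2947 to 5892, for 7 it ranked 5893 to 11784, and for 7 it ranked 11785 to 29995. The matching shares over all genes were 9.26%, 6.53%, 8.3% and 16.2%. After cars-1, the highest were kars-1 for lysine (score 171, rank 3248, 292 bp upstream) and pars-2 for proline (score 166, rank 3370, 32 bp upstream). The kars-1 region ranked 2968 in replicate 1 and 4858 in replicate 2. The pars-2 region ranked 3870 and 3962, so neither replicate placed it within its top 2946. Next were both alanine genes, aars-1 (score 111, rank 5792, 207 bp upstream) and aars-2 (score 107, rank 6167, 234 bp upstream). Their replicates spread widely, with aars-1 at 3544 and 15666 and aars-2 at 4298 and 7958. The remaining 13 unbound genes with a pooled summit ran from a score of 103 at sars-2, for serine, to 44.7 at pars-1, for proline. Of the 25 best regions, 18 had a summit within 200 bp in both replicates, 6 in 1 replicate and 1, at lars-2, in neither. The 18 matched in both include the 7 bound genes, and the matching share over all genes was not counted. No pooled summit was in the window of dars-1, dars-2, ears-1, fars-2, nars-2, vars-1 or yars-1, which act on aspartate, glutamate, phenylalanine, asparagine, valine and tyrosine.

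The number in the symbol is often read as the compartment, 1 for the cytosol and 2 for mitochondria. Genes numbered 1 were bound in 5 of 20 cases (25%), and genes numbered 2 in 1 of 11 (9.09%), the latter being the strongest peak of the family. Over all genes the share was 9.26%, so the genes numbered 2 were near it. The higher share of genes numbered 1 depended on the assignment and on the peaks used. From 500 bp before to 100 bp after a 5' end, 3 of 20 and 1 of 11 were bound, beside 6.73% of all genes. With the stronger 1473 peaks, 2 of 20 and 1 of 11 were bound, beside 4.86% of all genes. By the nearest 5' end alone, 1 of 20 and 1 of 11 were bound, beside 9.62% of all genes. With a summit within 300 bp of a 5' end, the shares were 5% and 9.09%, beside 5.26% of all genes. For any pooled summit the counts were 16 of 20 (80%) and 8 of 11 (72.7%), beside 40.3% of all genes. A difference of this kind between 20 and 11 genes was not tested. The symbol is also an imperfect guide, since RefSeq names aars-1 as the mitochondrial and aars-2 as the cytoplasmic alanine enzyme. By the compartment in the RefSeq protein names, 4 of 10 cytoplasmic enzymes were bound (iars-1, mars-1, rars-1 and tars-1), 1 of 4 mitochondrial enzymes (ears-2), and 2 of 18 with no compartment in the name (fars-1 and fars-3). These are 40%, 25% and 11.1%, beside the same 9.26%. Of the cytoplasmic enzyme genes called bound, iars-1, rars-1 and tars-1 had a summit nearer to another gene. With a summit within 300 bp of a 5' end, the shares were 10%, 25% and 5.56%, beside 5.26% of all genes. Outside the symbol rule, RefSeq also names the enzymes of Y105E8A.20 and prx-10 as mitochondrial, and neither gene was bound. Of the 11 amino acids with several synthetase genes under the symbol rule, 3 had 1 bound gene, and phenylalanine had 2. Methionine is not among the 11, since Y105E8A.20, its mitochondrial enzyme by RefSeq name, falls outside the rule. For methionine, mars-1 was bound and Y105E8A.20 was not. For glutamate the mitochondrial ears-2 was bound, while the nearest pooled summit to ears-1 was 1065 bp upstream with a score of 70.6. For isoleucine and arginine the gene numbered 1 was bound. Their partner iars-2 had a best score of 85.2 at rank 9125, 986 bp upstream, and rars-2 had 53.4 at rank 20546, 398 bp downstream. The iars-2 region was matched only in replicate 2, at rank 5096, and the rars-2 region only in replicate 1, at rank 10167.

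Synthetase genes differed from the average gene in their annotation. Several annotated 5' ends, each of which adds its own window, were present in 17 of 32 synthetase genes (53.1%) and in 26.3% of all genes. Of the 17, 5 were bound (29.4%), beside 15.3% of all genes with several 5' ends. Of the 15 with 1 end, ears-2 and fars-3 were bound (13.3%), beside 7.12% of all such genes. Their neighbours were then sorted by strand and distance. In 16 (50%) the upstream neighbour pointed away from the synthetase, beside 42.2% of all genes, and 3 of these were bound (ears-2, iars-1 and mars-1). In 10 (31.2%) the upstream neighbour was on the same strand within 500 bp, beside 17.7% of all genes, and 2 of these were bound (fars-3 and rars-1). The 5' end lay inside another gene in 3 (9.38%), beside 6.94% of all genes, and fars-1 and tars-1 were bound among these. A same-strand neighbour farther away was present for 3 (9.38%), beside 33.2% of all genes, and none of these was bound. Over all genes, 12.8% of the divergent, 4.91% of the close same-strand, 7.35% of the overlapping and 7.44% of the distant same-strand genes were bound. The part of this arrangement in the synthetase counts was not tested. By chromosome, 9 members lie on I, 5 on II, 6 on III, 8 on IV, 4 on V and none on X, which holds 13.7% of all protein-coding genes. The bound genes number 3 on IV, 2 on II, and 1 each on I and III. The share of all genes bound on each chromosome was not counted.

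Other genes of protein synthesis give a scale for these counts. Of 76 cytosolic ribosomal protein genes, 47 were bound (61.8%), with a median score of 353. Of 45 translation factor genes, taken by symbols of initiation and elongation factors, 18 were bound (40%), with a median score of 285. Of 66 mitochondrial ribosomal protein genes, 13 were bound (19.7%), with a median score of 248. The synthetase share of 21.9% was thus lower than that of the cytosolic ribosomal proteins and the translation factors. It was close to that of the mitochondrial ribosomal proteins, and these differences were not tested. The lists also differ in several annotated 5' ends, each of which adds a window. These were present in 53.1% of synthetase, 40% of translation factor, 22.4% of cytosolic ribosomal and 12.1% of mitochondrial ribosomal genes. Counting summits within 300 bp of a 5' end alone, 3 synthetase genes (9.38%) were bound, beside 36.8% of cytosolic ribosomal, 26.7% of translation factor, 10.6% of mitochondrial ribosomal and 5.26% of all genes. Of a list of 15 genes that transcribe, mature or modify tRNAs, 14 were found by symbol in the annotation, and fmt-1 was not. None of the 14 was bound, beside 9.26% of all genes, a share at which a list of 14 holds few bound genes. A pooled summit was in the window of 6 of the 14 (42.9%), near the 40.3% of all genes, with the strongest at mtcu-2, for a mitochondrial tRNA modification enzyme, with a score of 127 at rank 4785. Outside the symbol rule, 4 genes carry a synthetase name in RefSeq, and none was bound: glp-4, a valine enzyme known for its role in the germ line (score 78.0, rank 10621), K03B4.1 (score 75.0, rank 11432), Y105E8A.20 (score 69.7, rank 13081) and prx-10, which had no pooled summit in the window.

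**Figure D4:**
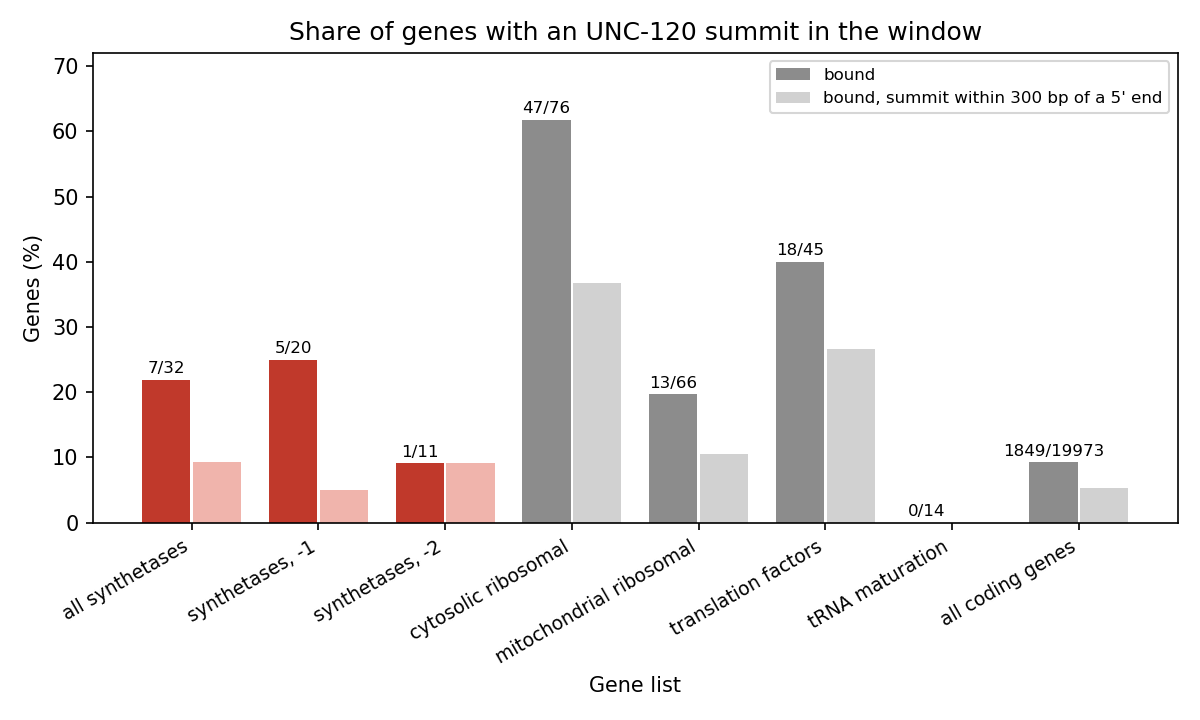
Share of genes (%) bound under the main window (dark bars, with bound and total counts printed above) and bound with a summit within 300 bp of a 5' end (light bars), for synthetase genes in red and other gene lists in grey. The synthetase bars reach 21.9% and 9.38%, beside 9.26% and 5.26% for all coding genes and 61.8% and 36.8% for cytosolic ribosomal proteins.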

How the data were processed

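The authors deposited lists of regions in narrowPeak format. Per the deposited listing, the ce11 files were 1 ranked list from each replicate, 1 from the pooled replicates, and the regions that passed an IDR threshold. The ranked lists are named there as peaks and background given to the IDR step. The authors' peak caller gave each region a score (column 7 of the deposited files) before deposit. Not given in the sources used here are the scale of that score, the aligner and the peak caller's name. The lists hold no read counts, so the depth is unknown and no counting interval is given. Lists in ce10 were not used, since the genome at hand was WBcel235, the same assembly as ce11, with Ensembl release 115 gene models. No coordinates were converted.

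Mitochondrial regions were set aside. The 5' ends were those of protein-coding transcripts, and 1 summit could count for more than 1 gene. A region took its replicate score and rank from the nearest summit within 200 bp in that replicate's list. Scores were used to rank and describe regions within a list, and no test was made, because genes and peaks are not replicates. Compartments came from RefSeq protein names. The windows, the gene assignment, the peak threshold and each replicate alone were varied. Full values went to every bound gene, to all genes of an amino acid with a bound gene, and to the 5 unbound genes with the strongest pooled region. Synthetase genes and the related lists were chosen with earlier results of these data known. The window call and the distance to a 5' end were tested on simulated peaks placed at annotated genes. Computations used Python 3.11.15 and matplotlib 3.10.9.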

Additional observations from a re-analysis of the deposited data

How the results depend on the processing

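The count of 7 bound synthetase genes stayed within a factor of 1.5 in 5 of 7 alternatives. It was 3 when a summit went to the nearest 5' end alone, within 2000 bp, and 4 with the stronger 1473 peaks. Genes numbered 1, 5 in the report, came to 3 with a narrower window (500 bp before to 100 bp after a 5' end), to 1 by the nearest 5' end, and to 2 with the stronger peaks. In the narrower window 5 of 32 synthetase genes were bound, beside 6.73% of all genes. The gene numbered 2, ears-2, was bound under every alternative. The share of all genes bound, 9.26%, became 15.8% with a wider window (3000 bp before a 5' end through the whole gene) and 4.86% with the stronger peaks. Using 1 replicate alone gave 6 to 7 bound synthetase genes, 4 to 5 of them numbered 1, and 9.03% to 9.25% of all genes. Without replicate 1, iars-1 and tars-1 were lost and cars-1 was gained. Without replicate 2, mars-1 was lost and cars-1 was gained. Over all 8 settings, ears-2 and fars-3 were always bound, and 24 genes never were. A narrower window and fewer peaks lower the counts by construction, and single assignment gives 4 of the 7 summits to the nearer gene. The cause of the differences between replicates was not tested. Unknown depth limits what an unbound call says about weak occupancy, and the authors' control reads were not used here.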
